A study of Homo sapiens with 12 samples.

Results

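The glycolysis and hypoxia response genes described here are 35 genes chosen by name: the enzymes that carry glucose to lactate, the kinases that set the flow through that route, the oxygen-sensing machinery of the cell and well-known targets of the hypoxia-inducible factors. All 35 were among the 32152 genes listed in the RNA sequencing data and all 35 were among the 13737 protein-coding genes that were tested. By role, 17 are glycolytic enzymes, 4 are regulators of glycolytic and pyruvate flux, 4 belong to oxygen sensing and 10 are other hypoxia targets.

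RNA was sequenced from 12 libraries of MDA-MB-231 and Hs-578T, a pair of established human triple-negative breast cancer cell lines with a mesenchymal shape. In each line, a parental control, cells named ERK5-ko and cells named MEK5DD were sequenced, 2 libraries apiece. ERK5 is a mitogen-activated protein kinase encoded by MAPK7, and MEK5 (MAP2K5) is the kinase that activates it. ERK5-ko cells were made with CRISPR/Cas9 guides against exons 3 and 5 of MAPK7, sorted and grown from single cells, and those of MDA-MB-231 descend from 1 surviving clone. For Hs-578T, which ERK5-ko clone was sequenced is not given in the sources used here. MEK5DD is the name of a constitutively active MEK5. How the MEK5DD cells were made is not given in those sources either, and no library is labelled as a vector control. The MDA-MB-231 libraries came from passages 29 and 30 of the parental controls, 7 and 8 of ERK5-ko and 10 and 11 of MEK5DD. For Hs-578T, the passages were 83 and 84 of the parental controls, 8 and 9 of ERK5-ko and 8 and 9 of MEK5DD. The passage number in the labels therefore differs between parental and engineered cells, and its part cannot be told apart from that of the label. The 2 replicates of a group are consecutive passages, so the p-values measure only the spread between these samples.

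The question put to these genes was how far the transcripts of sugar breakdown and of the response to low oxygen differ when ERK5 signalling is removed or its upstream kinase is made constitutively active. Glycolysis splits glucose into pyruvate, and lactate dehydrogenase turns pyruvate into lactate when it does not enter the mitochondria. Pyruvate dehydrogenase kinases close that entry. Hypoxia-inducible factors (HIF) are pairs of an oxygen-regulated subunit, such as HIF1A or EPAS1, and a stable partner. In air, prolyl hydroxylases of the EGLN family mark the oxygen-regulated subunit for destruction, so that much HIF regulation leaves the HIF1A transcript itself unchanged. When oxygen is short, HIF binds DNA at short elements with a core of ACGTG or GCGTG and raises the transcripts of many glycolytic enzymes, of carbonic anhydrase IX and of the EGLN enzymes themselves. No low-oxygen treatment appears in the labels, and the cells were cultured in air with added CO2.

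Values are RPKM, the reads on a gene relative to its length and to the size of its library. Totals recovered from the values lay between 20248162 and 27791195 reads per library, of which 92.05% to 94.51% fell on listed genes, and the mitochondrial genes took 0.29% to 1.47% of reads. Replicates of Hs-578T MEK5DD and of Hs-578T parental controls differed most, with a chi-square per degree of freedom of 41.9 and 30.7, against 2.81 to 8.78 in the other groups. MAPK7 itself was not lower in ERK5-ko, with 16.3 and 17.8 RPKM against 13.3 and 14.3 RPKM in parental MDA-MB-231 and 17.8 and 18.1 against 14.0 and 16.0 RPKM in Hs-578T. A total over the gene does not read a small lesion in an exon, so this value does not check the label. MAP2K5 rose to 188.5 and 183.8 RPKM in MDA-MB-231 MEK5DD from 12.9 and 13.6 RPKM in parental controls. In Hs-578T MEK5DD, it was 21.3 and 23.8 RPKM against 14.6 and 16.9 RPKM in parental controls. Of the 13 markers checked, ESR1, PGR, PTPRC, VWF, HBB and ALB were at or under 0.396 RPKM in every library, VIM and CD44 were at 818.6 RPKM or more, and ERBB2 lay between 27.8 and 56.8 RPKM. EPCAM was at or under 0.0862 RPKM in Hs-578T, and PECAM1 reached 2.81 to 6.48 RPKM there. Some epithelial and mesenchymal markers differed between labels and others did not. In MDA-MB-231, VIM was at 1610 and 1751 RPKM in parental controls, 1637 and 1598 RPKM in ERK5-ko and 3418 and 3492 RPKM in MEK5DD. VIM in Hs-578T was at 3608 and 3433 RPKM in parental controls, 3449 and 3352 RPKM in ERK5-ko and 3469 and 4067 RPKM in MEK5DD. EPCAM in MDA-MB-231 was at 18.4 and 19.5 RPKM in parental controls, 24.4 and 25.7 RPKM in ERK5-ko and 7.79 and 7.08 RPKM in MEK5DD. The keratin KRT8 was at 676.5 and 744.0 RPKM in parental MDA-MB-231 and at 1142 and 1146 RPKM in ERK5-ko, and KRT18 at 356.1 and 384.0 RPKM and at 692.2 and 671.3 RPKM. In Hs-578T, KRT18 was at 213.4 and 141.5 RPKM in parental controls and at 546.6 and 596.4 RPKM in ERK5-ko, while KRT8 was at 50.7 and 46.9 RPKM and at 29.7 and 27.9 RPKM. CD44 reached 1581 and 1696 RPKM in Hs-578T ERK5-ko, from 969.5 and 1048 RPKM. The part of these shifts in the changes of the members was not tested.

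The sequences upstream of 5 members, chosen after their values were seen, are shown because they carry the HIF core in genes that fell (CA9, ALDOC, BNIP3, KDM3A) or rose (ADM) in MDA-MB-231 MEK5DD. Each run holds 120 bases upstream of the start that RefSeq gives in GRCh38.p14, read along the strand of the gene, with each match to ACGTG or to its variant GCGTG in capitals, and likewise those on the other strand, which read CACGT or, for the variant, CACGC. Those of CA9, ALDOC, KDM3A and ADM cover positions -120 to -1 and that of BNIP3 covers -150 to -31, counted from that RefSeq start. The gene starts listed with the RPKM values differ from it. The distance was 72 bases for CA9, 369 for ALDOC, 90 for BNIP3, 724 for KDM3A and 393 for ADM. By the listed bounds, the runs of ALDOC, KDM3A and ADM lie wholly inside the gene and those of CA9 and BNIP3 partly.
CA9 (chr9:35673808-35673927, plus strand): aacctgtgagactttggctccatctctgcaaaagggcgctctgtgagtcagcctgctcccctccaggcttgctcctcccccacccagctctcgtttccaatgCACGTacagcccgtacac
ALDOC (chr17:28576896-28577015, minus strand): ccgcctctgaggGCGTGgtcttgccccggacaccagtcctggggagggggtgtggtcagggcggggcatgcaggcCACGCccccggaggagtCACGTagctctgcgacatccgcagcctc
BNIP3 (chr10:131981954-131982073, minus strand): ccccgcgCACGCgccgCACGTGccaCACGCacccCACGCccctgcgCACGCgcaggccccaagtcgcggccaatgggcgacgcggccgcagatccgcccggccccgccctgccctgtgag
KDM3A (chr2:86441251-86441370, plus strand): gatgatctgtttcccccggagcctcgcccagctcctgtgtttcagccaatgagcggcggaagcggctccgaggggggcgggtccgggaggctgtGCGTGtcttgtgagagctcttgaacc
ADM (chr11:10304953-10305072, plus strand): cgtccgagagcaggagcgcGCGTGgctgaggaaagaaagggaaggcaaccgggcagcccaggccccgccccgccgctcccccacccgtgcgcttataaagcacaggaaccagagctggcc
BNIP3 held 6 matches between -143 and -104, counting both strands of the palindrome CACGTG, in which the 2 forms overlap. CA9 held 1 match at -18 and ADM 1 at -101. Over the whole window of 250 bases before to 50 bases after the start, 25 of the 33 members with an entry (75.8%) held at least 1 match, against 62.5% of the 10281 tested genes with an entry and 48.4% of all 35116 promoters. At least 2 matches were held by 30.3% of members against 33.3% of tested genes, and at least 3 by 21.2% against 15.4%. The promoters of members held more CG dinucleotides, with a median of 30 against 26 in tested genes, and the part of base composition in these shares was not tested. BNIP3L and NDRG1 had no entry. In MDA-MB-231 MEK5DD against parental controls, a match was held by 9 of the 12 lower members with an entry and by 4 of the 4 higher members, so the letters did not divide the members by direction.

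The glycolytic enzymes were among the most abundant members. Across the 12 libraries, ENO1, which makes phosphoenolpyruvate, ranged from 1678 to 5462 RPKM, and GAPDH, which oxidises glyceraldehyde phosphate, from 1773 to 3498 RPKM. PKM, which makes pyruvate, ranged from 1472 to 2131 RPKM. LDHA, the lactate dehydrogenase subunit favoured in glycolytic tissues, ranged from 663.5 to 1460.2 RPKM. At the low end stood CA9, the membrane carbonic anhydrase that is among the most HIF-dependent of transcripts, with 0 to 18.2 RPKM, and ALDOC, the brain aldolase, with 0.093 to 15.7 RPKM. Between the members with more than 0 in every library, the ratio of the highest to the lowest library was 1.33 for PFKM and 168.5 for ALDOC. The ALDOC ratio spans both cell lines, and its lowest value, in Hs-578T parental replicate 2, rests on 2 reads. EGLN3, a prolyl hydroxylase that HIF itself raises, had a ratio of 28.4 and ADM, which encodes the vasodilator peptide adrenomedullin, one of 15.1.

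**Figure D1:**
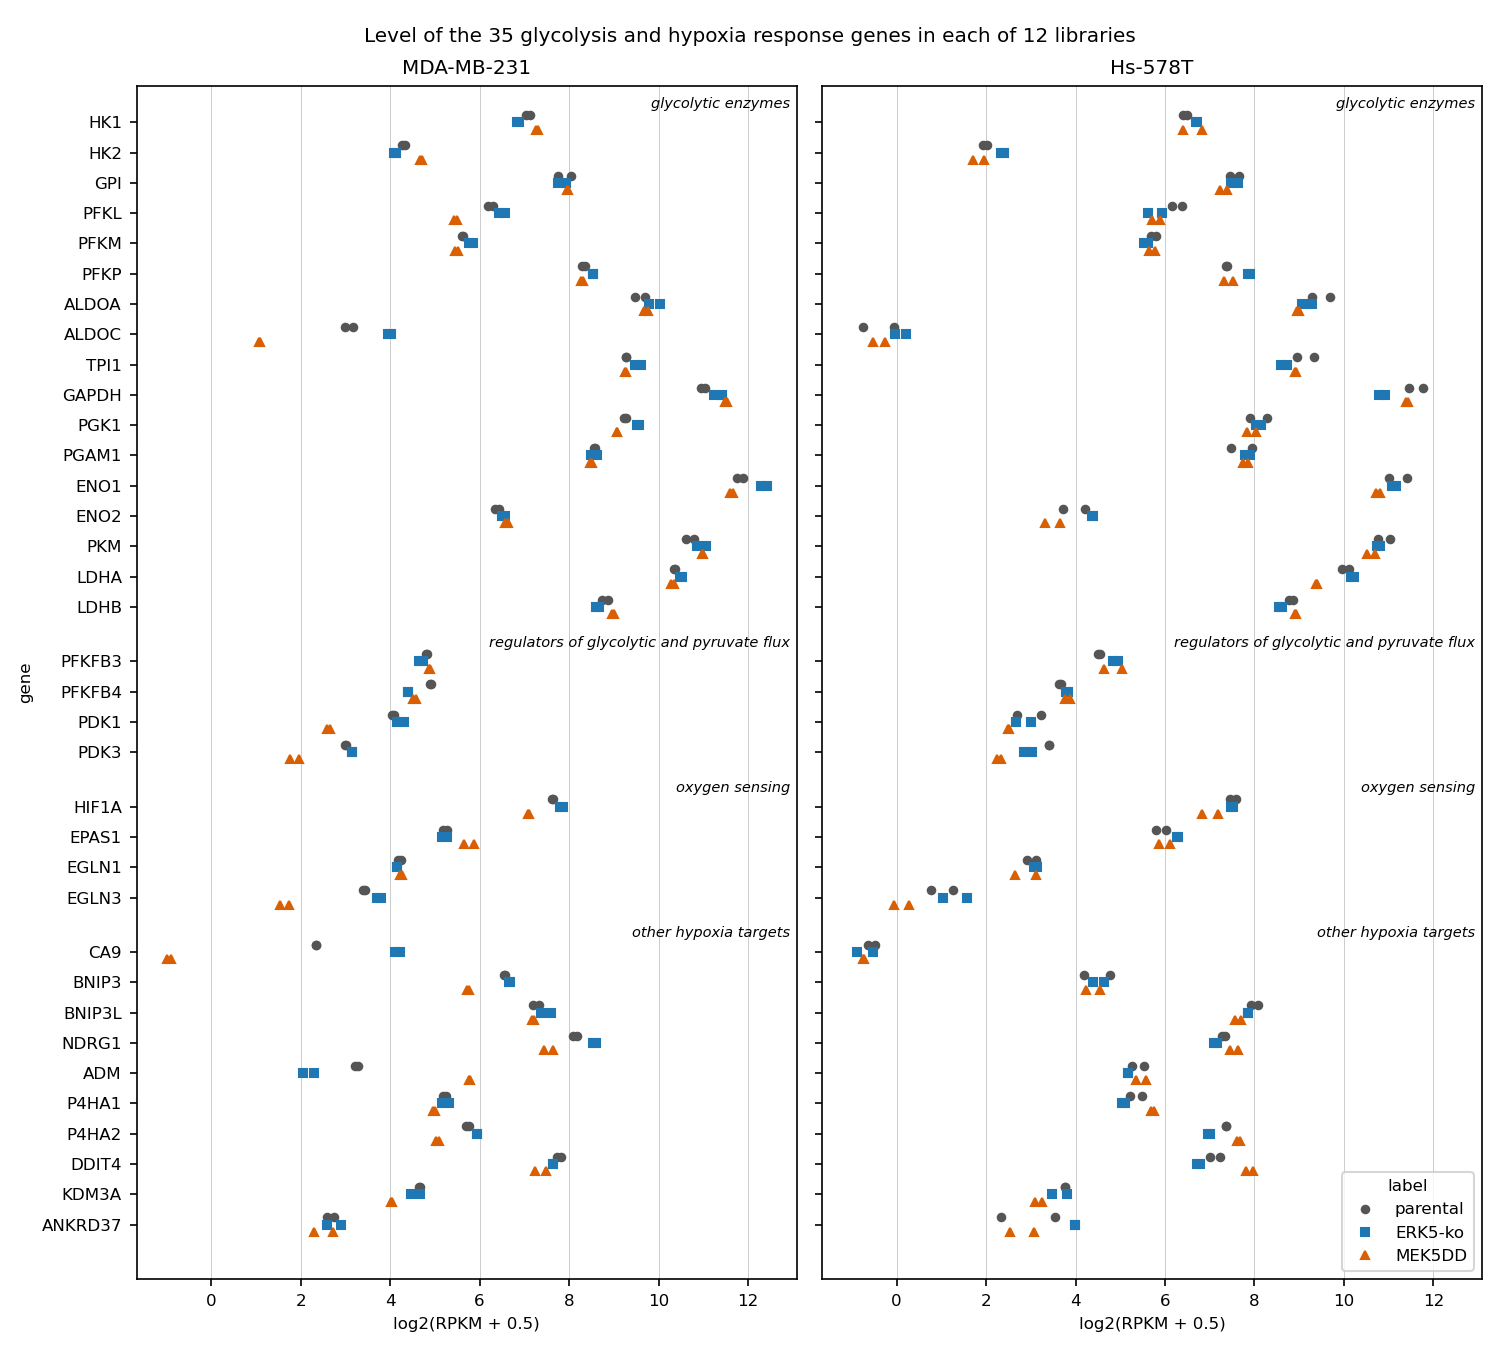
Level of each member on the log2(RPKM + 0.5) scale in MDA-MB-231 (left) and Hs-578T (right), with 1 point per library and 2 libraries per label (grey circles parental, blue squares ERK5-ko, orange triangles MEK5DD). CA9 and ALDOC spread widely over the MDA-MB-231 labels and stay near the bottom of the scale in Hs-578T, while PFKM keeps between 43.0 and 57.2 RPKM in all 12 libraries.

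In MDA-MB-231, ERK5-ko cells held more CA9, ALDOC, ENO1 and NDRG1 and less ADM and PFKFB4 than parental controls. These 4 higher members (11.4% of 35, against 6.91% of all tested genes called higher) and 2 lower members (5.71%, against 10.4%) passed an adjusted p of 0.05 in limma. The median log2 fold change was 0.15 over the members and -0.04 over all tested genes. CA9 (ENSG00000107159.12, chromosome 9, 35673856 to 35681159 of GRCh38) was at 4.55 and 4.58 RPKM in parental controls and at 16.8 and 18.2 RPKM in ERK5-ko. The groups did not overlap, and the ratio of the mean RPKM, the measure of every fold given without a counting interval, was 3.84 (log2 fold change 1.83, standard error 0.127, adjusted p = 5.68e-06). In such bulk samples, fewer cells with a transcript and less of it per cell cannot be told apart. CA9 overlaps ARHGEF39 on the opposite strand by 2011 bases, and ARHGEF39 went the other way, from 2.85 and 3.07 RPKM to 1.74 and 1.77 RPKM. ADM (ENSG00000148926.9, chromosome 11, 10304680 to 10307397) was at 8.76 and 9.16 RPKM in parental controls and at 3.65 and 4.40 RPKM in ERK5-ko. It was 2.22-fold lower (log2 fold change -1.07, standard error 0.118, adjusted p = 0.000163). ALDOC (ENSG00000109107.13, chromosome 17, 28573115 to 28577264) stood at 7.48 and 8.53 RPKM in parental controls and at 15.7 and 14.9 RPKM in ERK5-ko. Both ERK5-ko libraries lay above both parental ones, 1.91-fold higher on average (log2 fold change 0.89, standard error 0.196, adjusted p = 0.00927). The whole of ALDOC lies within another listed gene, RP11-192H23.4, on the same strand, and how reads were divided between them is not given in the sources used here. That gene was at 11.1 and 12.8 RPKM in parental controls and at 7.91 and 7.21 RPKM in ERK5-ko.

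ENO1 was at 3437 and 3784 RPKM in parental MDA-MB-231 and at 5017 and 5462 RPKM in ERK5-ko, 1.45-fold higher (log2 fold change 0.54, standard error 0.145, adjusted p = 0.0262). PFKFB4, an isoform of the bifunctional enzyme that makes and breaks the activator of phosphofructokinase, was at 29.8 and 29.2 RPKM in parental controls and at 20.7 in each ERK5-ko library. It fell by 0.50 on the log2 scale (standard error 0.0853, adjusted p = 0.00248). NDRG1, a stress-induced protein of epithelial and hypoxic cells, rose by a log2 fold change of 0.45 (adjusted p = 0.00915). When replicates were blocked by their number, 9 members were higher, since ALDOA (adjusted p = 0.0395), GAPDH (0.0479), PGK1 (0.0277), EGLN3 (0.0472) and P4HA2 (0.0464) then passed, each with a log2 fold change between 0.21 and 0.33. CA9, ADM and PFKFB4 held their calls without each single library. ALDOC did not without parental replicate 1 or either ERK5-ko replicate (0.81 to 0.93), ENO1 without any 1 of the 6 MDA-MB-231 libraries (0.47 to 0.61) and NDRG1 without replicate 1 of the parental controls or of ERK5-ko (0.40 to 0.42). Under quantile normalization, ENO1 was at 0.17 and did not pass.

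In MDA-MB-231 MEK5DD, more members passed than in ERK5-ko, as did more of all tested genes, and most of these members fell. Against parental controls 13 members fell (37.1%, against 23.8% of all tested genes), among them CA9, ALDOC, EGLN3, both pyruvate dehydrogenase kinases and HIF1A. The 4 that rose (11.4%, against 17.5%) were ADM, EPAS1, GAPDH and HK2. The median log2 fold change was -0.13 over the members and -0.01 over all tested genes. By role, 2 of the 17 glycolytic enzymes rose and 2 fell (11.8% each), with a median of -0.01. Lower were 6 of the 10 other hypoxia targets (60%), 3 of the 4 flux regulators (75%) and 2 of the 4 oxygen-sensing genes (50%). CA9 was almost absent, with 0 and 1 reads (0 and 0.0362 RPKM) where the parental controls had 112 and 127 reads. Summed over replicates and scaled to the totals, this was a 235.7-fold difference with an exact counting interval of 41.9 to 9348.9 (95%, Clopper-Pearson), which covers counting error only. The fitted value, -3.29 on the log2 scale (standard error 0.127, adjusted p = 5.68e-09), depends on the value of 0.5 added before the logarithm. ARHGEF39 stood at 6.42 and 6.66 RPKM in these libraries, above its parental values.

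ALDOC was at 1.60 and 1.63 RPKM in MDA-MB-231 MEK5DD, 4.94-fold below parental controls (log2 fold change -2.0, standard error 0.196, adjusted p = 9.38e-06). RP11-192H23.4, which covers it, was at 15.0 and 13.6 RPKM. EGLN3 (ENSG00000129521.13, chromosome 14, 33924231 to 34462774) was at 9.99 and 10.3 RPKM in parental controls, 12.5 and 13.3 RPKM in ERK5-ko and 2.39 and 2.83 RPKM in MEK5DD. The 2 MEK5DD libraries lay far below the other 4, 3.91-fold below parental controls (log2 fold change -1.78, standard error 0.199, adjusted p = 2.64e-05). The gene shares 29568 bases with SPTSSA on the same strand, which was at 22.4 and 21.5 RPKM in parental controls and at 17.0 and 15.4 RPKM in MEK5DD. PDK1 (ENSG00000152256.13, chromosome 2, 172555373 to 172608669), a HIF target that shuts pyruvate out of the mitochondrial matrix reactions, was at 15.9 and 16.5 RPKM in parental controls and 19.3 and 17.2 RPKM in ERK5-ko. In MEK5DD it was at 5.51 and 5.81 RPKM, 2.86-fold below parental controls (log2 fold change -1.44, standard error 0.165, adjusted p = 3.33e-05). PDK3, the isoform on chromosome X, was at 7.46 and 7.55 RPKM in parental controls and at 3.41 and 2.90 RPKM in MEK5DD (log2 fold change -1.14, adjusted p = 7.46e-06).

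ADM moved against the other hypoxia targets that passed, CA9, BNIP3, P4HA2, KDM3A, NDRG1 and DDIT4, all of which fell. It stood at 53.8 and 55.0 RPKM in MDA-MB-231 MEK5DD, 6.07-fold above parental controls (log2 fold change 2.54, standard error 0.118, adjusted p = 2.34e-08). ADM was thus lowest in ERK5-ko and highest in MEK5DD, the reverse of the order of CA9, ALDOC and EGLN3. In each of the 4 genes the library values of the 3 labels did not overlap. For EGLN3, however, ERK5-ko against parental controls did not pass in the main limma fit (adjusted p = 0.295). These genes were picked for their large changes, and how many of all tested genes were so separated was not counted. The MEK5DD and ERK5-ko comparisons share the parental controls, so they are not independent of each other.

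**Figure D2:**
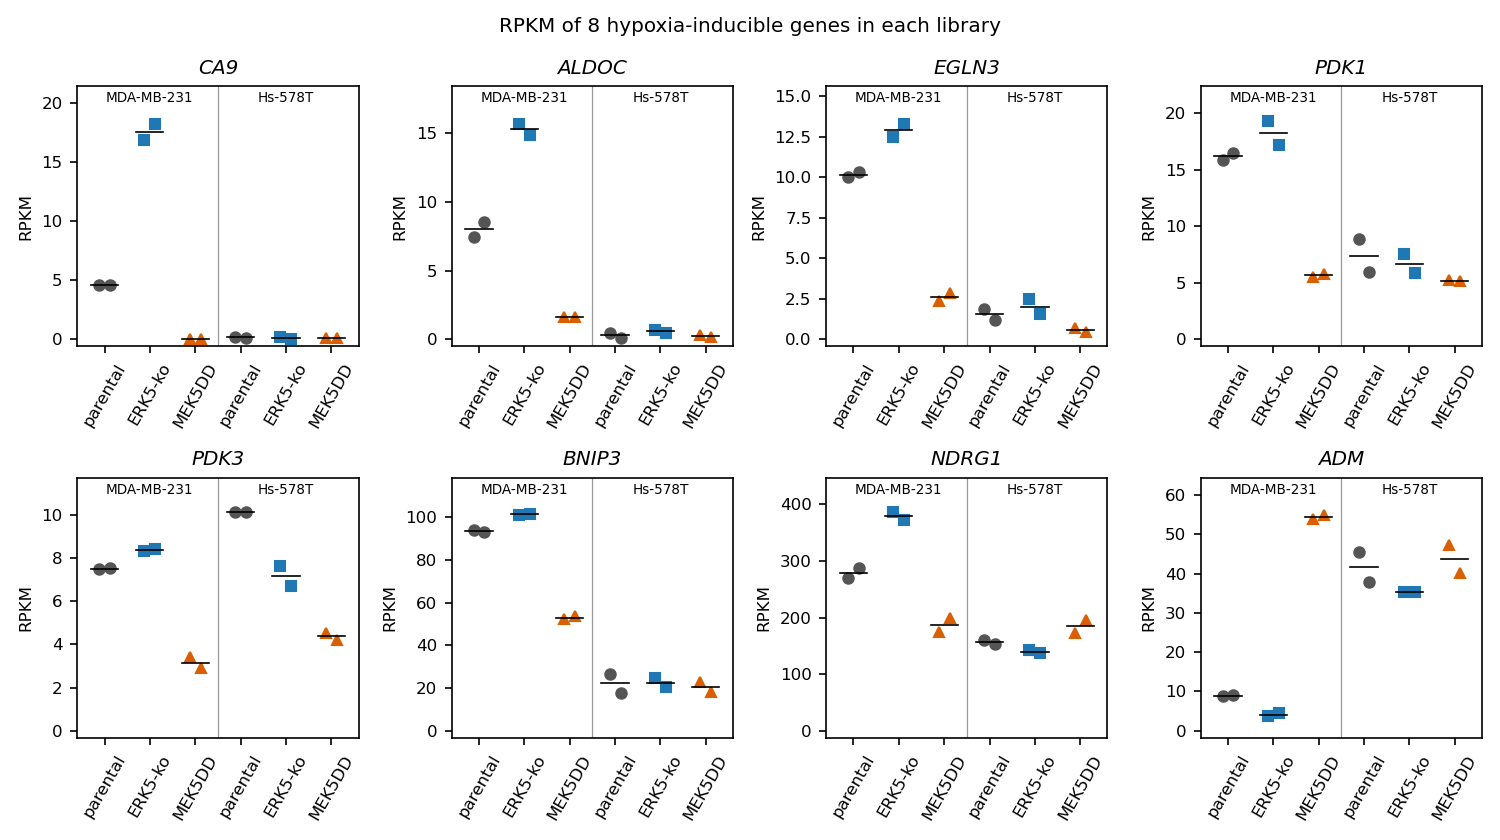
RPKM of CA9, ALDOC, EGLN3, PDK1, PDK3, BNIP3, NDRG1 and ADM (vertical axes, each with its own scale from 0) in the 2 libraries of each label of MDA-MB-231 and Hs-578T, with a line at the mean. In MDA-MB-231, 7 of the genes are lowest in MEK5DD, with CA9 at 0 and 0.0362 RPKM, while ADM is highest there at 53.8 and 55.0 RPKM.

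The other members that fell in MDA-MB-231 MEK5DD did so by less. BNIP3, a mitochondrial protein of mitophagy, ran from 93.1 to 93.8 RPKM in parental controls and from 52.3 to 53.5 RPKM in MEK5DD (log2 fold change -0.82, adjusted p = 0.00209). PFKL, the liver-type phosphofructokinase, ran from 72.4 to 77.6 RPKM and from 42.7 to 44.5 RPKM (log2 fold change -0.78, adjusted p = 0.000329). P4HA2, a collagen prolyl hydroxylase, changed by -0.67 on the log2 scale, KDM3A, a histone demethylase, by -0.62, NDRG1 by -0.58, HIF1A by -0.53, DDIT4, an inhibitor of mTOR signalling, by -0.42 and PFKFB4 by -0.35, with adjusted p between 3.05e-05 and 0.0096. P4HA2 overlaps PDLIM4 on the opposite strand by 15784 bases, and PDLIM4 went the same way, from 35 and 36.6 RPKM to 5.96 and 7.14 RPKM. The library kit marks strand, but whether counting used it is not given in the sources used here, so the reads of the 2 genes cannot be told apart with certainty. HIF1A shares 14122 bases on the same strand with RP11-618G20.1, which was higher in MEK5DD, at 47.2 and 48.4 RPKM against 32.3 and 31.4 RPKM. EPAS1, the HIF2 alpha subunit, rose by 0.54, GAPDH by 0.53 and HK2, the inducible hexokinase, by 0.39. Without single libraries 13 of the 17 calls held. HK2 (0.35 to 0.36), PFKFB4 (-0.34 to -0.32) and DDIT4 (-0.38 to -0.29) lost theirs without replicate 1 of the parental controls or of MEK5DD, and GAPDH (0.47 to 0.55) without parental replicate 1 or either MEK5DD replicate. GAPDH was at 0.17 and did not pass under quantile normalization.

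In Hs-578T ERK5-ko, 6 members rose (17.1%, against 19.7% of all tested genes) and 7 fell (20%, against 19.7%), so both shares lay near those of all genes. ANKRD37, an ankyrin protein encoded by a HIF target, PFKP, the platelet phosphofructokinase, ENO2, the neuronal enolase, HK2, PFKFB3 and EPAS1 were higher. GAPDH, PFKL, TPI1, PDK3, P4HA2, DDIT4 and P4HA1 were lower. The median log2 fold change was -0.08 over the members and 0.01 over all tested genes. The main fit took the spread of each gene from both lines, while the parental Hs-578T replicates differed more than those of MDA-MB-231. Fewer members passed in either direction when only the 6 Hs-578T libraries were fitted. GAPDH (ENSG00000111640.14, chromosome 12, 6533927 to 6538374) was at 3498 and 2797 RPKM in parental controls and at 1922 and 1773 RPKM in ERK5-ko, 1.70-fold lower (log2 fold change -0.76, standard error 0.137, adjusted p = 0.0012). PFKP ran from 164.8 to 167.5 RPKM in parental controls and from 232.5 to 237.7 RPKM in ERK5-ko (log2 fold change 0.50, standard error 0.0886, adjusted p = 0.00109). PFKL, its liver isoform, went the other way, from 83.1 and 70.5 RPKM to 60.1 and 48.4 RPKM (log2 fold change -0.50, standard error 0.121, adjusted p = 0.00683). TPI1, which interconverts the triose phosphates, was at 647.0 and 490.7 RPKM in parental controls and at 421.6 and 385.6 RPKM in ERK5-ko (log2 fold change -0.48, standard error 0.125, adjusted p = 0.0101). ANKRD37 was at 11.1 and 4.57 RPKM in the parental controls, which lay apart, and at 15.3 in each ERK5-ko library (log2 fold change 1.04, standard error 0.312, adjusted p = 0.0208).

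The remaining Hs-578T ERK5-ko changes were of 0.42 for ENO2, 0.39 for HK2, 0.36 for PFKFB3 and EPAS1, -0.47 for PDK3, -0.38 for P4HA2, -0.36 for DDIT4 and -0.28 for P4HA1 on the log2 scale. PDLIM4, on the strand opposite to P4HA2, again went the same way, from 50 and 45.3 RPKM to 37.2 and 32.3 RPKM. The calls of PFKP, GAPDH and P4HA2 held without each single library and 10 did not hold. Without parental replicate 1 or ERK5-ko replicate 2, PFKL (-0.38 to -0.35) and TPI1 (-0.42 to -0.28) no longer passed. HK2 (0.34 to 0.42), EPAS1 (0.26 to 0.38) and DDIT4 (-0.40 to -0.25) were lost without parental replicate 1 or either ERK5-ko replicate, PFKFB3 (0.30 to 0.42) without any of these 4 libraries, ANKRD37 (0.44 to 1.05) without parental replicate 2 or either ERK5-ko replicate and PDK3 (-0.38) without ERK5-ko replicate 2. ENO2 (0.17 to 0.42) and P4HA1 (-0.32 to -0.15) each lost their calls without 9 of the 12 libraries in turn. ENO2 also did not pass under median-ratio scaling (0.39) or quantile normalization (0.40).

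In Hs-578T MEK5DD, 3 members rose (8.57%, against 6.44% of all tested genes) and 10 fell (28.6%, against 17.0%). PDK3, EGLN3, LDHA, KDM3A, HIF1A, ALDOA, ENO2, PFKL, ENO1 and BNIP3L fell, and DDIT4, P4HA1 and P4HA2 rose. The median log2 fold change was -0.16 over the members and -0.08 over all tested genes, and under median-ratio scaling, the split was 5 higher and 5 lower. Fewer members also passed in either direction when only the 6 Hs-578T libraries were fitted, without the spread of MDA-MB-231. PDK3 (ENSG00000067992.12, chromosome X, 24465221 to 24539837) was at 10.1 in each parental control, 7.61 and 6.70 RPKM in ERK5-ko and 4.52 and 4.21 RPKM in MEK5DD. It was 2.32-fold lower in MEK5DD than in parental controls (log2 fold change -1.12, standard error 0.108, adjusted p = 4.86e-05). EGLN3 was at 1.88 and 1.20 RPKM in parental controls and at 0.709 and 0.466 RPKM in MEK5DD, on 10 to 45 reads per library, 2.62-fold lower (log2 fold change -0.90, standard error 0.199, adjusted p = 0.00801). LDHA (ENSG00000134333.13, chromosome 11, 18394388 to 18408425) stood at 1107 and 995.7 RPKM in parental controls and at 663.5 and 678.5 RPKM in MEK5DD (log2 fold change -0.65, standard error 0.1, adjusted p = 0.0011). DDIT4 was at 148.7 and 127.6 RPKM in parental controls and at 223.4 and 249.7 RPKM in MEK5DD, a rise of 0.78 on the log2 scale (standard error 0.109, adjusted p = 0.000621). KDM3A was at 13.1 in each parental control and at 7.99 and 9.08 RPKM in MEK5DD (log2 fold change -0.59, standard error 0.123, adjusted p = 0.0056). Each pair of groups was separate for these 5 genes, which had the largest changes among the members that passed. How many of all tested genes were so separated was not counted.

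HIF1A ran from 174.3 to 191.0 RPKM in Hs-578T parental controls and from 113.7 to 144.5 RPKM in MEK5DD, a log2 fold change of -0.51 (adjusted p = 0.00672). RP11-618G20.1, which overlaps HIF1A on the same strand, went the same way in this line, from 20.1 and 22.1 RPKM to 13.3 and 19.0 RPKM. The other changes were of -0.51 for ALDOA, -0.48 for ENO2, -0.46 for PFKL, -0.44 for ENO1, -0.36 for BNIP3L, 0.37 for P4HA1 and 0.28 for P4HA2. PDLIM4 also went the way of P4HA2 here, from 50 and 45.3 RPKM to 61.1 and 62.3 RPKM, and PNMA2, which shares 951 bases with BNIP3L on the opposite strand, went its way, from 67.8 and 76.2 RPKM to 39.9 and 60 RPKM. The calls of LDHA, PDK3, HIF1A, DDIT4 and KDM3A held without each single library. EGLN3 (-0.65) was lost without parental replicate 1, P4HA2 (0.28) without either parental replicate and P4HA1 (0.24 to 0.33) without parental replicate 2 or MEK5DD replicate 1. PFKL (-0.38 to -0.35) was lost without replicate 1 of either group, BNIP3L (-0.29) without parental replicate 1 or MEK5DD replicate 2 and ALDOA (-0.54 to -0.31) without parental replicate 1 or either MEK5DD replicate. ENO1 (-0.44 to -0.24) and ENO2 (-0.48 to -0.23) each lost their calls without 10 of the 12 libraries in turn. Under median-ratio scaling, PFKL (-0.37), ALDOA (-0.42), ENO1 (-0.35), ENO2 (-0.40) and BNIP3L (-0.27) did not pass.

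**Figure D3:**
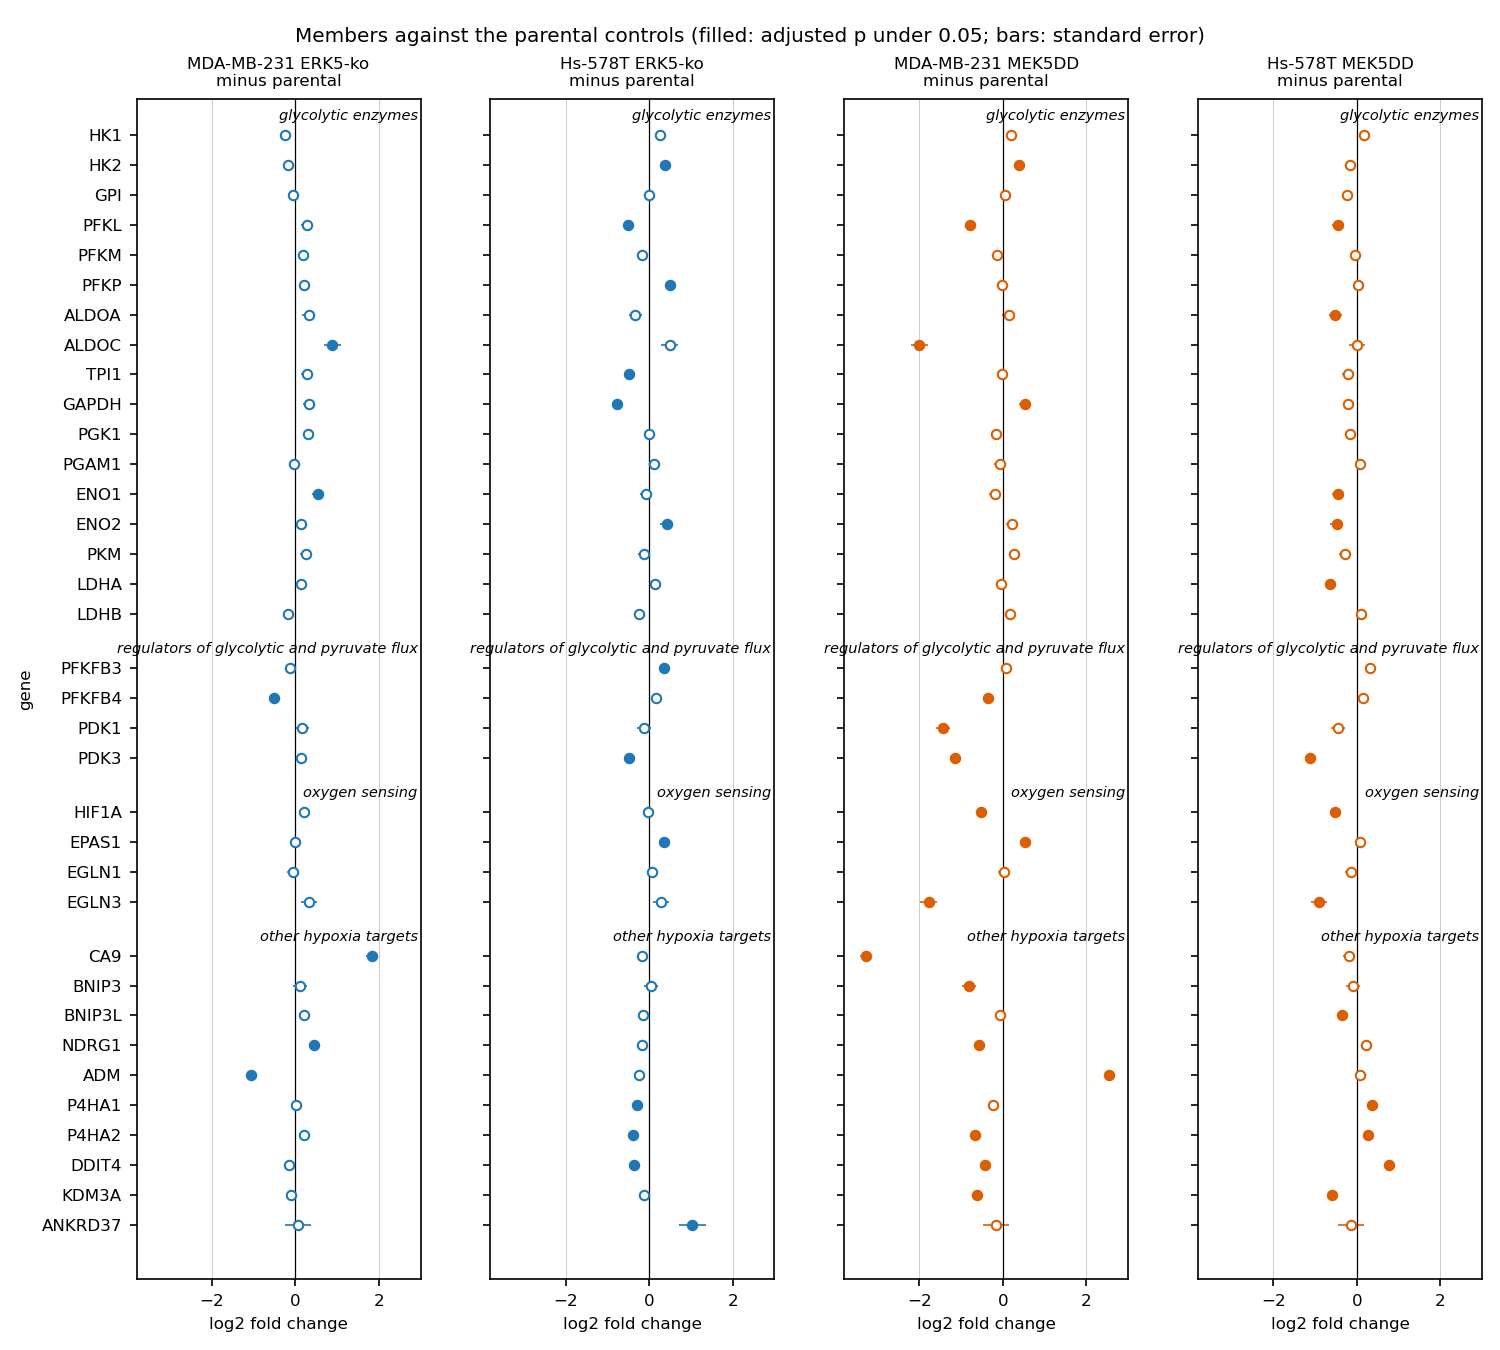
Log2 fold change of each member against the parental controls of its line (horizontal axis, log2(RPKM + 0.5) scale) for ERK5-ko in blue and MEK5DD in orange, with bars for the standard error and filled points for an adjusted p under 0.05. In MDA-MB-231 MEK5DD the filled points of CA9, ALDOC, EGLN3, PDK1 and PDK3 lie below -1 and that of ADM lies at 2.54.

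Across these 4 comparisons with parental controls, no member passed in all 4 and 8 members passed in none (HK1, GPI, PFKM, PGK1, PGAM1, PKM, LDHB and EGLN1). DDIT4, P4HA2, PDK3 and PFKL passed in 3. Such counts were not made over all tested genes, so whether these and the blocked counts below are unusual was not tested. When replicates were blocked by their number, EGLN3 (adjusted p of 5.93e-07 to 0.0472) and P4HA2 (2.78e-05 to 0.0464) passed in all 4, and PGK1 and LDHB left the group that passed in none, which then held 6. In Hs-578T ERK5-ko, the block added ALDOC (adjusted p = 0.012) and EGLN3 (0.0455) to the higher members and ALDOA (0.0202) and LDHB (0.0279) to the lower. It added P4HA1 (0.0357) to the lower members of MDA-MB-231 MEK5DD and PDK1 (0.0211) to those of Hs-578T MEK5DD. PGAM1, which moves the phosphate on phosphoglycerate, ran from 355.3 to 391.5 RPKM over the 6 MDA-MB-231 libraries, and EGLN1, the main prolyl hydroxylase of air-grown cells, from 17.3 to 18.6 RPKM. HK1, the housekeeping hexokinase, ran from 113.6 to 158.7 RPKM there and from 83.8 to 113.7 RPKM in Hs-578T. PKM in Hs-578T ran from 1472 to 2093 RPKM.

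The direct comparison of ERK5-ko with MEK5DD does not use the means of the parental controls, but their spread enters its standard errors and p-values. In MDA-MB-231, 18 members were higher in ERK5-ko (51.4%, against 27.1% of all tested genes) and 5 were lower (14.3%, against 27.9%), with a median of 0.26 over the members and -0.02 over all tested genes. CA9 had 377 and 453 reads in ERK5-ko and 0 and 1 in MEK5DD, a 904.2-fold difference with an exact counting interval of 161.8 to 35758 (95%, Clopper-Pearson). ALDOC was 9.44-fold (log2 fold change 2.90, adjusted p = 2.61e-07) and EGLN3 4.94-fold higher in ERK5-ko (log2 fold change 2.11, adjusted p = 4.06e-06). PDK1 was 3.23-fold, PDK3 2.65-fold, PFKL 2.08-fold and NDRG1 2.03-fold higher. BNIP3 (1.91-fold), P4HA2 (1.85-fold), HIF1A (1.67-fold), ENO1 (1.66-fold), KDM3A (1.47-fold) and PGK1 (1.38-fold), the ATP-making phosphoglycerate kinase, were also higher, with adjusted p of at most 0.00713. ADM was 13.5-fold (log2 fold change -3.61, adjusted p = 8.67e-10), HK2 1.5-fold, EPAS1 1.47-fold, HK1 1.36-fold and LDHB 1.27-fold lower in ERK5-ko. The other higher members were PFKM, PFKP, BNIP3L, P4HA1 and DDIT4, at 1.18-fold to 1.25-fold. HK1 (-0.42) lost its call without MEK5DD replicate 1, PFKM (0.27) without replicate 2 of ERK5-ko or MEK5DD and LDHB (-0.31 to -0.30) without ERK5-ko replicate 2 or MEK5DD replicate 1. PFKP lost its call without any 1 of the 6 MDA-MB-231 libraries, and BNIP3L, P4HA1 and DDIT4 without 7, 8 and 7 of the 12 libraries in turn, with log2 fold changes then of 0.16 to 0.33.

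In Hs-578T, 9 members were higher in ERK5-ko than in MEK5DD (25.7%, against 30.7% of all tested genes) and 6 were lower (17.1%, against 19.2%). EGLN3 was 3.42-fold higher (log2 fold change 1.19, adjusted p = 0.000498), ANKRD37 2.32-fold, ENO2 1.91-fold, LDHA 1.74-fold, PDK3 1.64-fold, HK2 1.53-fold, KDM3A 1.42-fold, HIF1A 1.40-fold and PFKP 1.37-fold. DDIT4 was 2.21-fold (log2 fold change -1.13, adjusted p = 8.44e-06), P4HA2 1.59-fold, P4HA1 1.58-fold, GAPDH 1.47-fold, NDRG1 1.32-fold and LDHB 1.27-fold lower. When replicates were blocked by their number, 14 were higher, since ALDOC, ENO1, PDK1, EPAS1 and BNIP3L then passed with adjusted p of 0.00984 to 0.0436. The block also added ADM (0.0186) and TPI1 (0.043) to the lower members, while TPI1 (0.0278) joined the higher members in MDA-MB-231. LDHB (-0.31) and KDM3A (0.30) did not pass without ERK5-ko replicate 1, GAPDH (-0.50) without ERK5-ko replicate 2 and ANKRD37 (0.92 to 1.18) without replicate 2 of either group. GAPDH was at -0.22 and did not pass under quantile normalization. PFKP, PDK3, HIF1A, EGLN3 and KDM3A thus passed as higher in ERK5-ko than in MEK5DD in both lines and LDHB as lower. NDRG1, DDIT4, P4HA1, P4HA2 and HK2 passed in opposite directions in the 2 lines. How often all tested genes passed in the same or in opposite directions was not counted, so these lists have no share to set beside them.

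**Figure D4:**
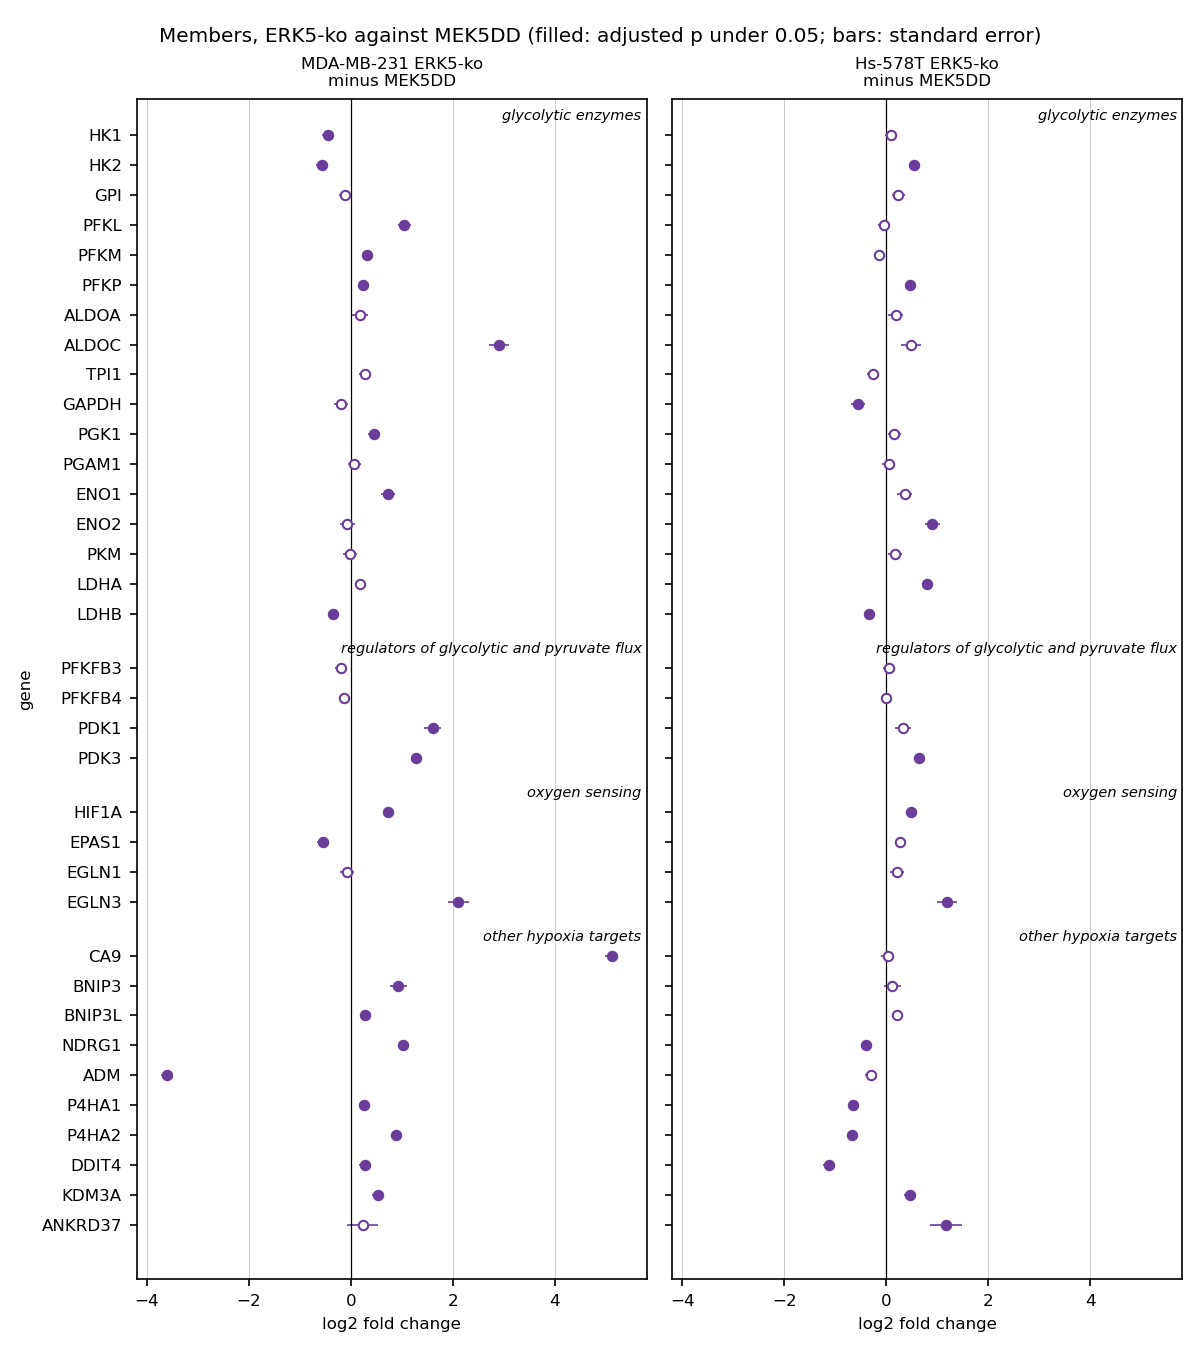
Log2 fold change of each member in ERK5-ko against MEK5DD (horizontal axis, log2(RPKM + 0.5) scale) in MDA-MB-231 (left) and Hs-578T (right), with bars for the standard error and filled points for an adjusted p under 0.05. CA9 at 5.12 and ADM at -3.61 mark the ends in MDA-MB-231, and EGLN3 at 1.19 and DDIT4 at -1.13 those in Hs-578T.

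The changes differed between the lines when tested directly as a contrast of contrasts. For ERK5-ko, 10 members differed towards higher in MDA-MB-231 (28.6%, against 18.3% of all tested genes) and 5 towards lower (14.3%, against 21.5%). CA9 had the largest difference, 1.98 on the log2 scale (standard error 0.18, adjusted p = 1.37e-05). GAPDH differed by 1.09, PFKL by 0.77 and TPI1 by 0.75, and ADM by -0.84. For MEK5DD, 8 differed towards higher (22.9%, against 21.3%) and 10 towards lower (28.6%, against 18.2%). MAP2K5 itself was 14.1-fold above parental controls in MDA-MB-231 MEK5DD and 1.42-fold above them in Hs-578T MEK5DD. A difference in the level of MEK5 therefore cannot be told apart from a difference between the lines. CA9 differed by -3.10 (adjusted p = 3.59e-07), ADM by 2.47 (1.07e-06), ALDOC by -2.01 (0.000192), DDIT4 by -1.19 (0.000124), PDK1 by -0.99 (0.00614) and P4HA2 by -0.95 (4.58e-05). In parental Hs-578T, CA9 was at 0.219 and 0.145 RPKM and ALDOC at 0.464 and 0.093 RPKM. With 0.5 added, a fall as large as that in MDA-MB-231 could not have shown for either gene. Their differences for MEK5DD therefore do not tell whether the lines responded differently. CA9 in Hs-578T rested on 1 to 5 reads per library under every label. Its reads there in ERK5-ko (6 in all) were 0.648 times those in parental controls (8), scaled to the totals, with an exact counting interval of 0.185 to 2.13 (95%, Clopper-Pearson), which lies below the 3.84-fold rise in MDA-MB-231. In MEK5DD (4 reads), the ratio was 0.534, with an interval of 0.118 to 1.99. Changes of CA9 within these intervals were not detectable in Hs-578T at this depth. Median-ratio scaling moved the split for ERK5-ko to 12 higher and 3 lower and that for MEK5DD to 5 higher and 10 lower, and quantile normalization moved the latter to 4 higher and 9 lower. With the replicate block, EPAS1 (adjusted p = 0.0461), BNIP3L (0.0193), P4HA1 (0.042) and ANKRD37 (0.0324) also differed for ERK5-ko and BNIP3L (0.0403) for MEK5DD.

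Without engineering, the lines differed in these genes. In parental controls, 20 members were higher in MDA-MB-231 (57.1%, against 46.0% of all tested genes) and 6 were higher in Hs-578T (17.1%, against 31.3%). The median was 0.35 over the members and 0.19 over all tested genes. Median-ratio scaling moved the latter to -0.02 and the split to 17 and 10, so a shift of all genes by 0.19 is part of each value below. EGLN3 was 6.62-fold, HK2 5.57-fold, ENO2 5.39-fold and BNIP3 4.23-fold higher in MDA-MB-231. ALDOC, at 0.464 and 0.093 RPKM on 11 and 2 reads in the Hs-578T parental controls, was higher in MDA-MB-231 (log2 fold change 3.49, adjusted p = 1.29e-08). With 438 reads against 13, the ratio scaled to the totals was 28.0, with an exact counting interval of 16.2 to 52.9 (95%, Clopper-Pearson), and the ratio of mean RPKM was 86.1 without replicate 1 and 17.3 without replicate 2 of Hs-578T. CA9, with 239 reads against 8, was 24.8-fold higher, with an exact counting interval of 12.4 to 58.1 (95%, Clopper-Pearson). ADM was 4.65-fold (log2 fold change -2.15, adjusted p = 1.06e-08) and P4HA2 3.14-fold lower in MDA-MB-231, and EPAS1 1.63-fold, BNIP3L 1.68-fold, GAPDH 1.55-fold and PDK3 1.34-fold. GAPDH was at -0.03 and did not pass under quantile normalization. GPI, with a log2 fold change of 0.35, lost its call with the replicate block (adjusted p = 0.0932), under which ANKRD37 passed as lower in MDA-MB-231 (0.0435), and GPI (0.20 to 0.24) also lost its call without replicate 2 of either line. LDHA (0.25 to 0.33) lost its call without either MDA-MB-231 replicate or Hs-578T replicate 2, and PFKFB3 (0.26 to 0.30) without 10 of the 12 libraries in turn.

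With the fold thresholds of the study's methods added to the adjusted p (a log2 fold change past a fold of 1.5 upward or of 0.5 downward), fewer members were called. The thresholds were set on the fitted fold of RPKM + 0.5, not on the ratio of the mean RPKM. In MDA-MB-231 ERK5-ko, CA9 and ALDOC made 2 higher (against 2.8% of all tested genes) and ADM made 1 lower (against 1.07%). In Hs-578T ERK5-ko, ANKRD37 was the 1 higher (against 9.35%) and 0 were lower (against 3.27%), where 7 passed as lower on the adjusted p alone. In MDA-MB-231 MEK5DD, ADM was the 1 higher (against 7.64%), and CA9, ALDOC, EGLN3, PDK1 and PDK3 made 5 lower (against 6.31%). In Hs-578T MEK5DD, DDIT4 was the 1 higher (against 2.9%) and PDK3 the 1 lower (against 1.49%). EGLN3, 2.62-fold lower there by mean RPKM, was not called, since its fitted fold was 0.537. Between ERK5-ko and MEK5DD, 11 were higher (against 17.5%) and 1 lower (against 6.12%) in MDA-MB-231, and 5 were higher (against 15.3%) and 1 lower (against 3.96%) in Hs-578T. HK2 in Hs-578T, 1.53-fold higher by mean RPKM, was likewise not called, at a fitted fold of 1.46. For the differences between lines, 9 were higher (against 13.3%) and 0 lower (against 7.31%) for ERK5-ko, and 5 were higher (against 15.3%) and 3 lower (against 6.89%) for MEK5DD. Between the parental controls, 17 were higher in MDA-MB-231 (against 34.1%) and 2 lower (against 15.4%).

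Genes of the same routes that are not members were described by counts. In MDA-MB-231 ERK5-ko, 1 of 20 other tested genes of glycolysis and pyruvate handling rose (5%) and 1 fell (5%), and 4 of 32 other hypoxia and HIF genes rose (12.5%) and 4 fell (12.5%), against 6.91% and 10.4% of all tested genes. The former list holds glucose and lactate transporters and subunits of pyruvate dehydrogenase, among others. In Hs-578T ERK5-ko, 1 of the 20 rose (5%) and 6 fell (30%), and 11 of the 32 rose (34.4%) and 5 fell (15.6%), against 19.7% of all tested genes in either direction. In MDA-MB-231 MEK5DD, 1 of the 20 rose (5%) and 7 fell (35%), and 4 of the 32 rose (12.5%) and 14 fell (43.8%), against 17.5% and 23.8%. In Hs-578T MEK5DD, 2 of the 20 rose (10%) and 4 fell (20%), and 5 of the 32 rose (15.6%) and 10 fell (31.2%), against 6.44% and 17.0%. In MDA-MB-231 MEK5DD, the medians of these lists were -0.19 and -0.27, beside -0.13 over the members and -0.01 over all tested genes. Directly between ERK5-ko and MEK5DD in MDA-MB-231, 10 of the 20 (50%) and 17 of the 32 (53.1%) were higher in ERK5-ko, against 27.1% of all tested genes, and 3 (15%) and 6 (18.8%) were lower, against 27.9%.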

How the data were processed

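RNA was harvested from cells at partial confluence and sequenced from stranded mRNA libraries. The authors deposited RPKM values of 32152 genes in 12 libraries, and all 12 columns were matched to a sample by its label. The submitters' processing notes name bcl2fastq, Trimmomatic 0.32, TopHat2 2.1.1, R 3.3.1, DESeq2 1.12.4 and GRCh38, without roles. The counting tool, its use of strand and the annotation are not given in the sources used here.

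Whole reads were recovered from the RPKM steps of all 32152 genes. The gene lengths implied by the recovered totals lay within 2% of the mean length of the gene's GENCODE 29 transcripts for 100% of 7933 genes with at least 100 reads per library, and for 1.08% with totals 1% off. A gene was tested when it is listed as protein coding and reached an RPKM of 0.5 in 2 or more libraries, which 13737 genes did. The 6 groups were fitted as means of log2(RPKM + 0.5) over the 12 libraries (limma 3.58.1, R 4.3.3, variance trend, 6 residual degrees of freedom), and the Benjamini-Hochberg method adjusted p within each comparison. The 0.5 added makes fold changes of low genes too small. Where a gene is low in 1 line only, this can make the difference between the lines too large. The fit was run on simulated counts with the same extra spread for every gene and group, and with genes changed only in MDA-MB-231 ERK5-ko. This run does not measure errors in the Hs-578T comparisons, whose parental and MEK5DD replicates differed most. Groups were cell line and label, and 9 comparisons were made.

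The main fit did not pair replicates. Replicate differences correlated by 0.107 to 0.541 between the pairs of groups within a line, so a fit that blocked replicate numbers within each line was an alternative. The labels do not say whether replicates of the same number were handled together. Other alternatives changed the pseudocount, filter, scaling, gene types, libraries, fold threshold and tool (limma voom on recovered reads). The 35 members and the lists were chosen with earlier results of these data known. All members are named, with library values for the 5 with the largest change among those passing in each comparison with parental controls, and a log2 fold change only where a member passed. Promoter sequences are from RefSeq (GRCh38.p14) and matched 33 of 35 members by symbol. Intervals cover counting error only. Other steps used Python, numpy, pandas and matplotlib.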

Additional observations from a re-analysis of the deposited data

Results flagged for a closer look

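The change of 15 members with ERK5-ko and of 18 members with MEK5DD differed between the cell lines in a direct test, the limma contrast of contrasts at an adjusted p under 0.05. The values are the log2 fold change against parental controls in MDA-MB-231 minus that in Hs-578T. MAP2K5 rose 14.1-fold in MDA-MB-231 MEK5DD and 1.42-fold in Hs-578T MEK5DD, so for MEK5DD its level cannot be told apart from the line. For ERK5-ko, the difference was positive for CA9 (1.98), GAPDH (1.09), PFKL (0.77), TPI1 (0.75), ALDOA (0.65), ENO1 (0.62), NDRG1 (0.61), PDK3 (0.61), P4HA2 (0.60) and PFKM (0.35), and negative for ADM (-0.84), PFKFB4 (-0.66), HK2 (-0.57), HK1 (-0.50) and PFKFB3 (-0.49). For MEK5DD, it was positive for ADM (2.47), GAPDH (0.73), ENO2 (0.70), ALDOA (0.65), LDHA (0.60), PKM (0.56), HK2 (0.55) and EPAS1 (0.46), and negative for CA9 (-3.10), ALDOC (-2.01), DDIT4 (-1.19), PDK1 (-0.99), P4HA2 (-0.95), EGLN3 (-0.88), NDRG1 (-0.81), BNIP3 (-0.73), P4HA1 (-0.60) and PFKFB4 (-0.51). For MEK5DD, CA9 and ALDOC were too low in parental Hs-578T to show a large fall once 0.5 was added. EGLN3, also low there, fell 3.91-fold in MDA-MB-231 and 2.62-fold in Hs-578T by mean RPKM. Without each single library, 10 of the 15 and 10 of the 18 calls held. HK1, PFKM, ALDOA, ENO1 and PFKFB3 did not hold theirs for ERK5-ko, and HK2, ALDOA, GAPDH, ENO2, PKM, EPAS1, EGLN3 and BNIP3 did not for MEK5DD. The groups of 2 libraries are too small for a test of single libraries that stand apart.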

How the results depend on the processing

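No value of a member that passed changed sign under any of the 22 alternatives that refitted the values, over 146 such values in 9 comparisons (87 in fits of 1 line). The counts of members moved more than the values. With the fold thresholds of the study's methods (a fitted fold of RPKM + 0.5 above 1.5 or below 0.5 beside the adjusted p), MDA-MB-231 ERK5-ko had 2 members higher and 1 lower. The counts were 1 and 0 in Hs-578T ERK5-ko, 1 and 5 in MDA-MB-231 MEK5DD, 1 and 1 in Hs-578T MEK5DD, 11 and 1 for ERK5-ko against MEK5DD in MDA-MB-231 and 5 and 1 in Hs-578T. For the differences between lines, 0 were lower for ERK5-ko, 5 higher and 3 lower for MEK5DD and 2 lower between parental controls. Fitting only the 6 libraries of a line gave 11 higher in MDA-MB-231 ERK5-ko, 1 higher and 3 lower in Hs-578T ERK5-ko and 1 higher and 2 lower in Hs-578T MEK5DD. The replicate block gave 9 higher in MDA-MB-231 ERK5-ko and 14 higher for ERK5-ko against MEK5DD in Hs-578T, and ended 1 call, that of GPI between parental controls, while the other counts stayed within 1.5 times. Median-ratio scaling gave 5 higher and 5 lower in Hs-578T MEK5DD, 3 lower for the difference of ERK5-ko, 5 higher for that of MEK5DD and 10 lower between parental controls. Quantile normalization gave 5 higher in Hs-578T MEK5DD and 4 higher for the difference of MEK5DD, and no filter on low values gave 5 for the latter. The cause of these shifts was not tested.

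Leaving out each library in turn gave 1 to 6 higher and 2 to 3 lower in MDA-MB-231 ERK5-ko, 1 to 7 and 2 to 8 in Hs-578T ERK5-ko, 2 to 5 and 11 to 13 in MDA-MB-231 MEK5DD, and 1 to 5 and 4 to 13 in Hs-578T MEK5DD. For ERK5-ko against MEK5DD, it gave 14 to 19 and 3 to 6 in MDA-MB-231 and 8 to 13 and 5 to 8 in Hs-578T. The differences between lines ranged over 7 to 15 and 3 to 7 for ERK5-ko, 2 to 8 and 8 to 11 for MEK5DD and 17 to 20 and 6 to 8 between parental controls. Where this leaves 1 library in a group, that library is assumed to vary like the others. The precision of CA9 and ALDOC in Hs-578T was limited by depth, with at most 18 reads on either gene in a library.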
